A study of Homo sapiens with 4 samples.

Results

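In K562 cells, 557 H3K27ac peaks lay at a gene end and were called without daunorubicin but not with it. A gene end here is either annotated end of a gene in the RefSeq table (GRCh38.p14), and a peak is at it when it lies within 1 kb. These regions were chosen by the peak calls themselves: each came from the untreated list and shared not even 1 bp with any peak of the daunorubicin list. They are 557 of the 14272 untreated peaks at a gene end (3.9%) and of 38626 untreated peaks in all. Their absence from the daunorubicin list, and every score, width or distance that follows from it, is therefore a description and not a test.

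The series profiled K562, a human erythroleukaemic cell line of chronic myeloid leukaemia origin, by ChIP-seq. The groups used were H3K27ac without drug, H3K27ac after 1 uM daunorubicin for 18 h, and an input library without antibody for each of those conditions, with 1 library per group. Daunorubicin is an anthracycline that intercalates into DNA and traps topoisomerase II on it. With 1 library per condition no difference could be tested against the spread between cultures, and all intervals given are Wilson 95% intervals that cover counting error only.

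Acetylation of histone H3 at lysine 27 is placed by the acetyltransferases EP300 and CREBBP and removed by histone deacetylases. It flanks the start sites of active genes and marks active enhancers, and the nucleosome-free start site itself often divides the mark into peaks on either side. At the far end of a gene the mark is usually low, so a peak there may belong to an enhancer or to a neighbouring gene's start. A peak that is not called is not proof that the mark is absent, and fewer marked cells cannot be told apart from less mark in each cell.

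The promoters below, from the RefSeq table (GRCh38.p14), show where high-scoring peaks of this set sat on the start site of a protein-coding gene, and 1 case, CROT, with no daunorubicin peak near it. Each runs 5′ to 3′ on the gene's strand, from 250 bases before the annotated start to 50 after it, and capitals mark the bases inside the untreated-only peak.
DHODH, chr16:72008494-72008793, + strand: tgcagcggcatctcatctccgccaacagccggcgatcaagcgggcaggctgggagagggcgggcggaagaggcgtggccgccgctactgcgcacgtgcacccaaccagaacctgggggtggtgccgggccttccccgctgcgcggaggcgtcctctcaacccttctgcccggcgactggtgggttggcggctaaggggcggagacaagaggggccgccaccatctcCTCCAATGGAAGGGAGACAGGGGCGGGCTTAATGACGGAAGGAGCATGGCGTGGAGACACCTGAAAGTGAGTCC
KLF15, chr3:126357359-126357658, - strand: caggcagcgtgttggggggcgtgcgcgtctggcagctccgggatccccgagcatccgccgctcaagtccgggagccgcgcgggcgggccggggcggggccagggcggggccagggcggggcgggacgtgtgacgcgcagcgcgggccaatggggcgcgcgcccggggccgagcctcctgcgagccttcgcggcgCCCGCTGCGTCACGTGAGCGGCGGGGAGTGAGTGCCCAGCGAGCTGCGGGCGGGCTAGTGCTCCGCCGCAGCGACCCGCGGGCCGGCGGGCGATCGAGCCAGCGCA
DPH2, chr1:43969760-43970059, + strand: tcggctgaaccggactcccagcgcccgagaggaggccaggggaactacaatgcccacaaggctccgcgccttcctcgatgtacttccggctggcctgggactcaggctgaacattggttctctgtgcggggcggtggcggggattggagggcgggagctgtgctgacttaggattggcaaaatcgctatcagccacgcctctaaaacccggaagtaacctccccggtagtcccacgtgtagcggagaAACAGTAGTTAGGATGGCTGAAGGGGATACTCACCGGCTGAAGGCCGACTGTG
MCAM, chr11:119317081-119317380, - strand: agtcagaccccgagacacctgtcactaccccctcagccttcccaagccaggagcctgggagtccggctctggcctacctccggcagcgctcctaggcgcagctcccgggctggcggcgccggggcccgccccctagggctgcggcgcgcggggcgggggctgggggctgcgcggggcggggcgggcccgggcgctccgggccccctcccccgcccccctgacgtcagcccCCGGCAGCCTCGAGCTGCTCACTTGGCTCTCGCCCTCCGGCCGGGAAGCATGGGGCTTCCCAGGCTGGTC
CROT, chr7:87345414-87345713, + strand: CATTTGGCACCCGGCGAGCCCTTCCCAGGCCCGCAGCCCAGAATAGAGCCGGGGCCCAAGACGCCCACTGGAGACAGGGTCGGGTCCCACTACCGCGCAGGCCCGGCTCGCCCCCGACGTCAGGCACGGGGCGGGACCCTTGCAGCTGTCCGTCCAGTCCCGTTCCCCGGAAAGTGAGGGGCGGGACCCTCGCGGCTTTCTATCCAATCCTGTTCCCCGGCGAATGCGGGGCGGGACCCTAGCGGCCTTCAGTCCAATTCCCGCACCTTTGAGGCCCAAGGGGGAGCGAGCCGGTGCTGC
In DHODH, KLF15, DPH2 and MCAM the peak began close to the start site and ran into the gene, covering 74, 106, 53 and 70 of the 300 bases. The whole CROT window lay inside its peak. HDDC3 (score 96) also had a peak over its start, covering 51 of the 300 bases. Its promoter held none of the short motifs searched below and is not shown.

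The strongest of all the untreated-only peaks stood beside a pair of microRNA genes, whose mature sequences are shown with the seed (bases 2 to 8) in capitals because these genes gave the peak its place in the set.
hsa-miR-3618: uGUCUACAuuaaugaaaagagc
hsa-miR-1306-5p: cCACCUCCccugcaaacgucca
hsa-miR-1306-3p: aCGUUGGCucugguggug

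The untreated-only gene-end peaks were mostly weak and narrow. The score, a number the authors' lists give for each peak and which ranks peaks within 1 list, had a median of 23 (quartiles 17 and 31, range 10 to 246), against 153 for the 13715 untreated gene-end peaks that a daunorubicin peak overlapped. Only 62 of the 557 (11.1%) scored above 43, the median of the whole untreated list, and 5 reached 100. Their median width was 362 bp (239 to 1369 bp), against 1278 bp for the shared gene-end peaks and 497 bp for the 1485 shared ones with a score of at most 31, called weak shared peaks from here on.

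Gene-end peaks were less often untreated-only than other peaks over the whole list, but the shares were close among peaks of like score. Away from gene ends, 3583 of 24354 untreated peaks (14.7%) had no daunorubicin peak, and over the whole list 4140 of 38626 (10.7%). In the lowest score decile the share was 33.5% (29.2 to 38.0) at gene ends and 35.5% elsewhere, in the fifth decile 8.25% (6.44 to 10.5) and 8.96%, and in the highest 0.029%, a single peak, and 0%. In the other direction, 3726 of the 18429 daunorubicin peaks at a gene end (20.2%) had no untreated peak, from a list of 65118 peaks.

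**Figure D1:**
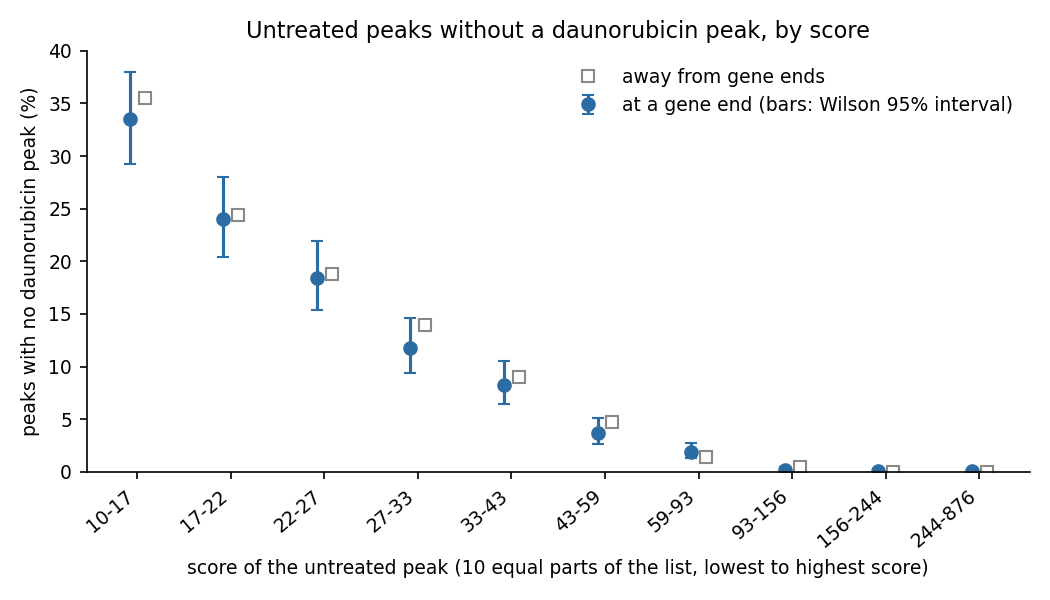
Share of untreated peaks with no overlapping daunorubicin peak (y axis, %) in 10 score deciles of the untreated list (x axis, score range), for peaks within 1 kb of a gene end (filled circles, Wilson 95% interval) and all other peaks (open squares). Both fall together from about a score of 10 to 93, and in the first 8 deciles the open square lies inside the bar of the filled circle.

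The highest-scoring of the 557 was the peak beside MIR3618 and MIR1306, inside DGCR8, which encodes the RNA-binding partner of Drosha in microRNA processing. It lay at chr22:20084978-20085544 with a score of 246, was 567 bp wide and lay 202 bp from MIR3618. The DGCR8 start itself was marked in both libraries, by an untreated peak of 2508 bp and a daunorubicin peak of 2555 bp, so the peak called without drug only was a separate one downstream. Daunorubicin peaks lay 3214 bp below it and, at 494 bp wide, farther along the gene.

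DHODH, the mitochondrial enzyme that oxidises dihydroorotate in pyrimidine synthesis, had a peak with a score of 177. It covered the start site at chr16:72008720-72009421 and was 702 bp wide. Without drug a separate peak of 240 bp stood upstream. With daunorubicin the upstream peak spanned 439 bp and ended 303 bp short of the untreated-only peak, and a peak inside the gene spanned 1905 bp, against 975 bp untreated. The gene thus kept a called peak within 1 kb of its start, but not on it.

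UMPS, the enzyme of the last steps to UMP in the same pathway, had 2 untreated-only peaks, both at its 3′ end, with scores of 18 and 32. The nearest daunorubicin peak was 17580 bp and 18699 bp away, and UMPS kept a daunorubicin peak at its other end. DHODH and UMPS were the only 2 of the 26 genes listed for pyrimidine and purine synthesis with such a peak, and 25 of the 26 were marked at an end in both libraries.

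ZFPM1 encodes FOG1, the cofactor through which GATA1 acts in erythroid and megakaryocytic cells. Its untreated-only peak at chr16:88452129-88452971 had a score of 156, was 843 bp wide and lay 360 bp inside the annotated start. The neighbouring downstream peak was called in both libraries, with 1697 bp untreated and 3077 bp with daunorubicin, and began 374 bp beyond the untreated-only peak. Because that neighbour lay past the 1 kb limit, ZFPM1 counted as marked at an end only without drug.

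At KLF15, a Krüppel-like transcription factor, the peak on the start scored 86 and was 1096 bp wide, and the peak just inside the gene was called in both libraries, at 354 bp untreated and 346 bp with daunorubicin, more than 1 kb from the start. KDM2A, a demethylase of histone H3 lysine 36, had an untreated-only peak of 420 bp and score 98 upstream of its start, while the peak on the start was called in both, at 1268 bp and 1195 bp. HDDC3, an HD-domain phosphohydrolase gene, had its start peak (score 96) called without drug only, 791 bp from a daunorubicin peak at the gene's other end. In these cases the peak that was not called stood next to one that was.

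Other high scorers had more room around them. The start of DPH2, an enzyme subunit of diphthamide synthesis on elongation factor 2, carried a peak of 603 bp and score 81, and the nearest daunorubicin peak, 3863 bp away, lay at the start of ATP6V0B. MCAM, the adhesion molecule CD146, had a start peak of 265 bp and score 81, 1105 bp from the nearest daunorubicin peak. Both genes lacked a daunorubicin peak at either end.

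**Figure D2:**
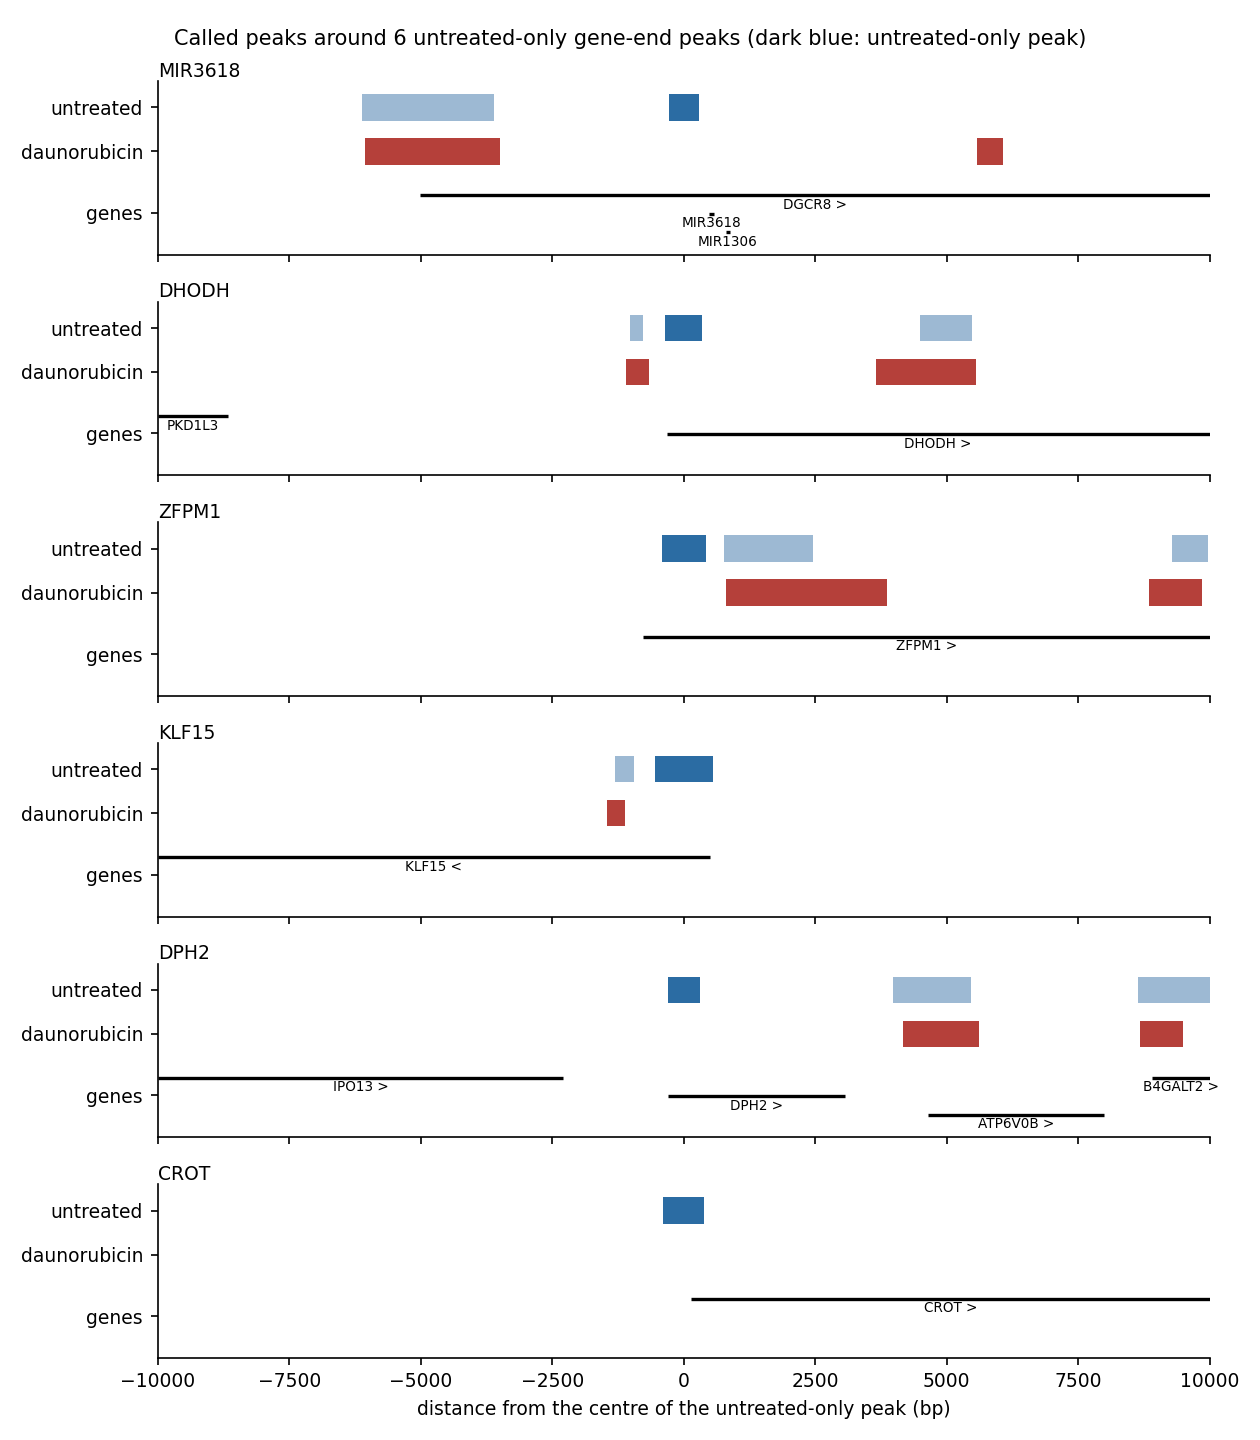
Called peaks within 10 kb of 6 untreated-only gene-end peaks (x axis, bp from the peak's centre), untreated above and daunorubicin below, with protein-coding and microRNA genes as black lines and > or < for the strand where known. The dark blue untreated-only peak stands next to a peak called in both libraries at DHODH, ZFPM1 and KLF15, and alone at CROT.

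The rest of the 15 highest scores were the lncRNA LOC102724467 (178), FBXL8 (113), the lncRNA LOC124904237 (95), RHOF (92), MUC5B (88), SNAR-B2 (86) and PNPLA3 (80). LOC102724467 had a 1181 bp peak over its start, with daunorubicin peaks on both sides, the nearer at 1149 bp. RHOF encodes a small GTPase of filopodia and PNPLA3 a lipid-droplet hydrolase, and both kept a daunorubicin peak at an end. SNAR-B2 belongs to a multicopy RNA family, so its reads cannot be placed with certainty. The 5 widest peaks were at MID1IP1-AS1 (1369 bp), MIR548J (1272 bp), SNORD13P3 (1262 bp), ELFN1-AS1 (1249 bp) and C20orf203 (1229 bp), and 4 of these 5 scored below 43.

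Most untreated-only gene-end peaks, 412 of the 557 (74.0%), had a daunorubicin peak within 10 kb. The median distance to the nearest was 3406 bp (quartiles 683 and 10354 bp), 178 of the 557 (32.0%) were within 1 kb, 234 between 1 and 10 kb, and 145 farther. Daunorubicin peaks stood within 1 kb on both sides of 10 peaks and within 5 kb on both sides of 79. Of the 178 nearest ones, 90 (50.6%) also had another untreated peak within 1 kb, against 10 of the 145 farthest (6.90%). Median scores were alike in the 3 distance bands, at 23, 21 and 24. No like distance was measured around other gene ends, so closeness is not read as particular to these peaks. A daunorubicin-only peak lay within 10 kb of 43.4% (39.4 to 47.6) of the untreated-only peaks and 41.5% (39.1 to 44.1) of the weak shared ones.

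At the level of genes, 286 of the 557 peaks (51.3%, 47.2 to 55.5) were at a gene that kept a daunorubicin peak at one of its ends. That share was 86.5% where a daunorubicin peak lay within 1 kb, 44.0% at 1 to 10 kb and 20.0% (14.3 to 27.2) beyond 10 kb. Both measures depend on how near daunorubicin peaks lie, so this fall largely follows from the definitions. Of 19866 protein-coding genes, 329 (1.66%) had an untreated-only peak at an end, of which 201 kept a daunorubicin end peak and 128 did not. Counting every peak, 148 of the 11690 protein-coding genes marked at an end without drug (1.27%) had no daunorubicin peak at either end, and 981 genes were marked only with daunorubicin. The count of 148 depended on the processing: it was 295 with a floor on the score, 508 with lists of equal length and 924 when a peak had to cover the end.

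**Figure D3:**
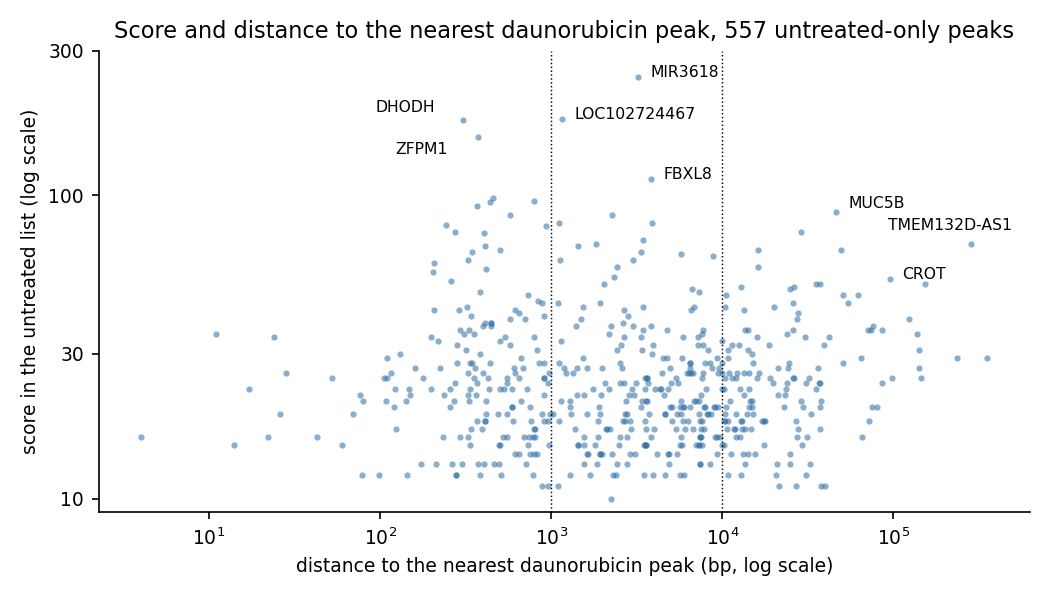
Each of the 557 untreated-only gene-end peaks by its distance to the nearest daunorubicin peak (x axis, bp, log scale) and its score (y axis, log scale). Dotted lines mark 1 kb and 10 kb, and the 5 scores of 100 or more all lie to the left of 10 kb.

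The 145 peaks with no daunorubicin peak within 10 kb scored at most 88. That highest one was at MUC5B, a secreted gel-forming mucin, where a 553 bp peak overlapped an annotated end, 46320 bp from the nearest daunorubicin peak. HGFAC, the protease that activates hepatocyte growth factor, had a 706 bp peak of score 66 over its 3′ end at 49258 bp, and CHST13, a chondroitin sulfotransferase, one of score 66 near its start at 16098 bp. CROT, the peroxisomal carnitine octanoyltransferase, had a 786 bp peak of score 53 across its start at chr7:87345138-87345923, and the nearest daunorubicin peak was 95423 bp away. KLHL30, a kelch-like gene, had a 956 bp start peak of score 47 at 10516 bp. FAM83G (51) had its peak at the 3′ end and kept a daunorubicin peak at the other. TRIM74 (76), NOMO1 (50), RHOXF2 (50) and FAM153A (49) complete the 10 named by score, but these 4 have near-identical copies elsewhere in the genome and are uncertain.

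Protein-coding genes with more than 1 untreated-only peak were 12 in number, each with 2. Besides UMPS and FAM153A they were CAMSAP3, INHBE, KIAA0930, LOC124903759, NAB2, PDCD1, PTGER1, SELPLG, TKFC and TUBG2. INHBE, an activin-family subunit, had scores of 68 and 15 and no daunorubicin end peak. NAB2, a corepressor of EGR factors, had scores of 39 and 37, 1 of them shared with the end of STAT6, and kept a daunorubicin peak. PTGER1, a prostaglandin E receptor, had 48 and 32, and SELPLG, the P-selectin ligand of leukocytes, 25 and 24, both without a daunorubicin end peak.

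Untreated-only peaks were at 3′ ends more often than shared ones. The strand was known for 342 of the 557, of which 187 were at a 5′ end (54.7%, 49.4 to 59.9) and 155 at a 3′ end alone. Among shared gene-end peaks 92.1% (91.6 to 92.6) were at a 5′ end. Weak shared peaks were at 5′ ends less often than strong ones, but a difference stayed at like score: with a score of at most 31, 46.6% (40.5 to 52.8) of the untreated-only peaks and 68.7% (65.6 to 71.7) of the shared ones were at a 5′ end. For daunorubicin-only gene-end peaks the share was 62.3% (60.3 to 64.3).

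Counted by gene end, 99 of 9339 protein-coding 5′ ends marked without drug (1.06%, 0.872 to 1.29) had no daunorubicin peak within 1 kb, against 157 of 1298 3′ ends (12.1%, 10.4 to 14.0). For lncRNA genes the figures were 57 of 2742 (2.08%) and 60 of 826 (7.26%). Of the 155 peaks at a 3′ end alone, 101 (65.2%, 57.4 to 72.2) were at a gene whose own 5′ end had a daunorubicin peak, close to the 64.4% (58.7 to 69.8) for weak shared 3′ peaks. Examples at the 3′ end of a gene that kept a daunorubicin end peak were FAM83G, UMPS, CCND3 and E2F2, each described with its own group.

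Around 5′ ends the peak centres were spread wider than those of all shared peaks and about as wide as those of weak shared and daunorubicin-only peaks. The centre was a median of 130 bp inside the gene (quartiles -341.5 and 437.5 bp from the start). The quartiles were -65.0 and 373 bp for shared, -389.75 and 314.25 bp for weak shared and -440 and 363 bp for daunorubicin-only peaks. Of the untreated-only peaks, 28.9% (22.9 to 35.7) lay within 250 bp of the start, against 49.9% of shared peaks, 37.3% (33.6 to 41.2) of weak shared peaks and 32.9% (30.5 to 35.4) of daunorubicin-only peaks. Only 116 of the 557 (20.8%, 17.7 to 24.4) covered the annotated end itself, against 75.1% of shared peaks and 30.2% (27.9 to 32.6) of weak shared ones. Among untreated-only peaks with a score of at most 31 the share was 16.7% (13.4 to 20.6). The positions around 5′ ends cover untreated-only peaks of all scores.

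**Figure D4:**
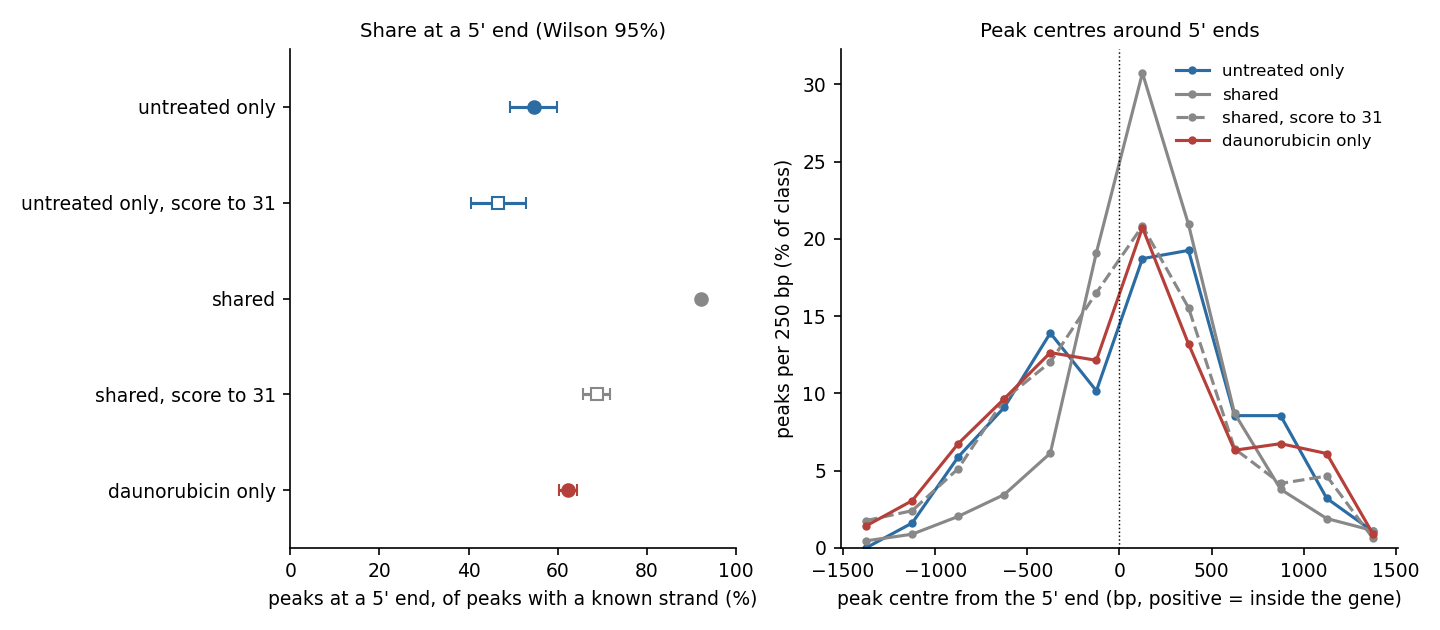
Left, share of gene-end peaks at a 5′ end among those with a known strand (x axis, %, Wilson 95% interval) for untreated-only, shared and daunorubicin-only peaks, open squares for scores of at most 31. Right, peak centres from the 5′ end (x axis, bp, positive inside the gene) as a percentage of each class per 250 bp, in which the shared class has the tallest and narrowest peak.

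By gene type, 302 of the 557 (54.2%, 50.1 to 58.3) were assigned to a protein-coding gene, 149 (26.8%) to a lncRNA and 81 (14.5%, 11.9 to 17.7) to a pseudogene. Shared gene-end peaks had 79.3%, 14.0% and 4.40%, while weak shared peaks had 49.4%, 33.2% and 13.3%. Untreated-only peaks with a score of at most 31 had 48.9%, 29.8% and 16.0%. Of pseudogenes marked at an end without drug, 68 of 624 (10.9%, 8.69 to 13.6) had no daunorubicin end peak, and of microRNA genes 23 of 280 (8.21%, 5.54 to 12.0). The share was 1.27% for protein-coding genes and 2.31% (405 of 17566) over all genes. These shares were not matched for score, so they are not read as an effect of gene type. Pseudogene reads may also come from a parent gene, which the peak lists do not resolve. None of the 557 overlapped an input peak, which allows a share of up to 0.685%. Of the 13715 shared gene-end peaks 1 did, and of the 1485 weak shared ones none. The input lists held only 92 and 87 peaks, so nothing is read from this 0.

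The marked length nearby was read from all peaks of each library. Within 5 kb of the untreated-only peak, which itself adds to the untreated figure, the median was 591 bp untreated and 330 bp with daunorubicin. Within 50 kb it was 4340 bp and 5544 bp, and 381 of the 557 neighbourhoods (68.4%) had more marked length with daunorubicin. Around shared peaks the share was 85.8%, and around weak shared peaks 91.4%. The choice of peaks tilts this contrast. Each untreated-only peak adds to the untreated length alone, while each shared peak has a daunorubicin peak over it. For the 145 most isolated peaks the 50 kb medians were 1945 bp and 2382 bp, with more marked length with daunorubicin in 68 and less in 77. These 145 were picked for having no daunorubicin peak within 10 kb, which lowers their daunorubicin length. A daunorubicin-only peak was found within 50 kb of 83.1% (79.8 to 86.0) of the untreated-only peaks and 84.2% (82.2 to 85.9) of the weak shared ones.

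Of the 555 genes in 23 pathway lists, 16 (2.88%) had an untreated-only end peak, beside 1.66% of all protein-coding genes. Most listed genes were marked at an end, while 7195 of the 19866 protein-coding genes had no end peak in either library. The shares thus have unlike bases, and their difference was not tested. Of these 16 only ZFPM1 and BIK lacked a daunorubicin peak at both ends. Of the 25 erythroid and K562 identity genes, 17 were marked at an end in both libraries, and 3 had an untreated-only peak: ZFPM1, NFE2 (score 17), the erythroid bZIP factor, and HBG1 (score 12), a fetal globin whose reads cannot be told from those of HBG2. NFE2 and HBG1 kept a daunorubicin end peak.

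Cell-cycle genes with an untreated-only peak were CCND3, cyclin D3 (score 37), and E2F2 (score 34), both at 3′ ends and 2 of 31 listed. Histone methylation had KDM2A and SUV39H1 (17), and the BCL2 family BCL2L1 (14) and BIK (20), a pro-apoptotic BH3-only protein. Single genes came from DNA replication (POLE), splicing (RBM38), autophagy (SQSTM1), cholesterol synthesis (SREBF1) and BCR-ABL1 signalling (MAPK3). The other 13 lists had none, among them DNA damage response (0 of 31), p53 targets (0 of 22), AP-1 and immediate early genes (0 of 20), NRF2 and antioxidant genes (0 of 25), haem synthesis (0 of 10) and RNA polymerase II transcription (0 of 38). Of all protein-coding genes 1.66% had such a peak, and at that share a list of this size holds few or none, so nothing is read from a zero here. Of the 31 DNA damage genes 30 were marked in both libraries, and of the 22 p53 targets 17 were.

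Gene family counts are read beside the same 1.66% of all protein-coding genes. None of the 87 cytosolic and 77 mitochondrial ribosomal protein genes, 46 complex I genes and 74 replication-dependent histone genes had such a peak. It was found at 3 of 517 zinc finger genes (ZNF286A, ZNF496 and ZNF730) (0.580%) and 6 of 386 solute carriers (1.55%). The largest share among the 20 families searched was 7 of 77 (9.09%) in the tripartite motif family, which is singled out for that reason and was not tested: TRIM11, TRIM14, TRIM17, TRIM44, TRIM46, TRIM63 and TRIM74. One peak served both TRIM11 and TRIM17, the TRIM46 peak was shared with MUC1, and apart from TRIM74 their scores were 12 to 26.

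Promoter sequence was available for 181 of the 201 genes with an untreated-only peak at the 5′ end. Of these 181, 117 had no daunorubicin peak within 1 kb of that end, and the others kept one. GC content had a median of 64.3% over the 181, against 65.3% at shared peaks and 58.0% over all 24882 promoters. The CpG ratio (observed over that from base composition) differed more: its median was 0.595, against 0.849 at shared peaks and 0.569 over all promoters. A ratio of at least 0.6 was found in 49.7% (42.5 to 56.9) of the 181 promoters and in 84.2% of those with shared peaks. It was also found in 48.5% of all promoters and in 42.9% (39.8 to 46.0) of those with a daunorubicin-only peak at the 5′ end. A low ratio is thus not particular to the untreated-only set. In the 117 with no daunorubicin peak at the 5′ end the share was 41.0% (32.5 to 50.1). With scores of at most 31, the shares were 36.6% (28.3 to 45.8) for untreated-only and 51.1% (47.1 to 55.1) for shared peaks.

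Short motifs were searched on both strands, with overlaps between motifs allowed. The ETS site CCGGAAG was in 8 of the 181 promoters (4.42%, 2.26 to 8.48), against 20.4% of promoters with shared peaks, 6.72% (4.98 to 9.03) with weak shared peaks and 10.7% of all. The GC box GGGCGG was in 58.0% (50.7 to 65.0), against 70.4%, 50.9% and 43.9%. Over protein-coding genes only the same 4 shares were 70.9% (62.2 to 78.4), 73.2%, 66.9% (61.8 to 71.6) and 58.5%. The GATA box AGATAA was in 4.97% (2.64 to 9.18), against 5.32%, 12.3% (9.87 to 15.1) and 10.6%, and the AP-1 site TGANTCA in 3.87% (1.89 to 7.77), against 4.64%, 10.1% (7.91 to 12.8) and 7.85%. Among protein-coding genes, the AP-1 site was in 5.13% (2.37 to 10.7), against 5.14% (3.28 to 7.98) with weak shared peaks. The GATA box was in 3.42% (1.34 to 8.46) of them, against 10.0% (7.28 to 13.6) with weak shared peaks. Over all gene types, with untreated-only peaks of scores of at most 31, the ETS site was in 2.68% (0.915 to 7.58) of 112 promoters. The GC box was in 48.2% (39.2 to 57.4) of these, the GATA box in 7.14% (3.66 to 13.5) and the AP-1 site in 4.46% (1.92 to 10.0). Under this shared score ceiling these intervals met those of the weak shared peaks. In the 117 promoters with no daunorubicin peak at the 5′ end, the ETS site was in 5.98% (2.93 to 11.8) and the GC box in 51.3% (42.3 to 60.2).

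The CCAAT box CCAAT (33.1%), the TATA box TATAAA (8.84%), the CACCC box CCACCC (43.1%), the E-box CACGTG (11.0%), the CRE TGACGTCA (3.31%), the antioxidant response core TGACNNNGC (14.9%), the NRF1 site GCATGCGC (3.87%), the YY1 site AAGATGGCG (1.10%) and the E2F site TTTCCCGC (2.21%) had intervals that overlapped those of the weak shared peaks. Over all promoters these shares were, in the same order, 36.1%, 12.2%, 33.2%, 7.40%, 2.01%, 13.7%, 3.33%, 1.86% and 1.62%. The untreated-only shares given here cover peaks of all scores. With scores of at most 31, their intervals also overlapped those of the weak shared peaks. In the CROT promoter shown above, GC boxes began at -122, -72 and -22 from the start, at equal spacing, with CCAAT boxes at -47 and 4, all within the peak. In DHODH the GC box at -4 and the CCAAT box at -22 were inside the peak and 3 further GC boxes upstream of it. DPH2 had ETS sites at -168 and -43, both outside its peak. These matches are descriptions of the letters and not measured binding.

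**Figure D5:**
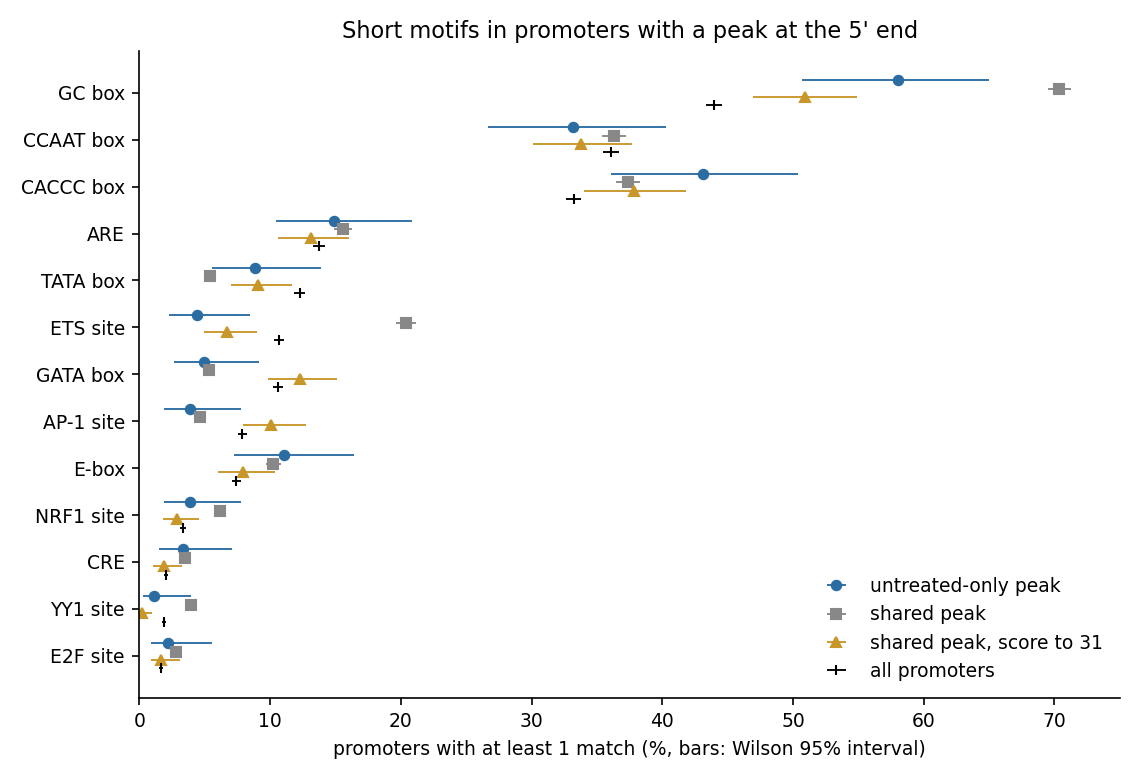
Share of promoters with at least 1 match to each of 13 short motifs (x axis, %, Wilson 95% interval) for genes with an untreated-only peak, a shared peak or a weak shared peak at the 5′ end, and for all promoters. Untreated-only peaks are of all scores, and weak shared peaks score at most 31. The ETS site separates shared peaks (20.4%) from the other classes, which lie between 4.42% and 10.7%.

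The limits of the set can be seen at its edges. Just inside the 1 kb limit were peaks at FLYWCH1-AS1 (995 bp), LOC105374921 (987 bp) and PILRB (981 bp), and just outside it peaks near MIR3671 (1001 bp), GATAD2B (1005 bp) and MIR365A (1006 bp). Closest to a daunorubicin peak without touching it were peaks at LOC105375170 (4 bp), ZNF730 (11 bp) and GPX5 (14 bp). Counted as shared by the smallest overlaps were peaks at LOC105369904 (5 bp), LHX1 (7 bp) and MORF4L1P2 (8 bp). Only 11 of the 13715 shared gene-end peaks had under 10% of their length in a daunorubicin peak.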

How the data were processed

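H3K27ac ChIP-seq and input libraries of K562 were represented by 1 deposited peak list each. The submitters' processing notes name MACS2 2.1.1, the aligner Bowtie2 2.3.4.3 and deepTools 3.2.1, with hg19 as well as hg38. The sources used here give no settings for peak calling, inputs or duplicate reads. No list has a header. The score per peak is the value the authors deposited in the fifth column, and it was used to rank peaks within a list. The exception is 1 alternative, which applied the untreated list's median score as a floor to both lists although the scale may differ between them. Read depth is unknown, so no depth was weighed. Coordinates were read as hg38: in the highest score decile 3462 untreated peaks lay within 1 kb of a GRCh38.p14 gene end and 401 did not.

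The 4 lists held 38626 (H3K27ac untreated), 65118 (H3K27ac daunorubicin), 92 (input untreated) and 87 (input daunorubicin) peaks. Peaks sharing at least 1 bp were shared. Gene ends came from RefSeq (GRCh38.p14), with 58961 genes, after 718 genes whose rows carry scaffold or alternate-locus coordinates were left out. Strand came from the promoter table and was found for 27303 genes, so 5′ and 3′ ends are given only for these. A peak's gene was the nearest end within 1 kb, protein-coding first. All 555 list genes matched by symbol. Named peaks were the 15 highest scores, the 5 widest, the 10 highest protein-coding ones with no daunorubicin peak within 10 kb, genes with at least 2, the 3 nearest each threshold, and those at listed genes. The regions, lists and rules were chosen with earlier results of these data known. Shares have Wilson 95% intervals, and the 0 of input overlap is given with the interval's upper bound. Overlaps were computed in Python 3.11.15 (pandas 2.3.3, numpy 2.4.6, SciPy 1.17.1) and checked against bedtools 2.31.1 on simulated peaks. Alternatives changed the score floor, list length, overlap, gap, distance, chromosomes, input peaks and gene set.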

Additional observations from a re-analysis of the deposited data

How the results depend on the processing

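No value has a replicate check, since each condition had 1 library, and the peak lists carry no read depth. No paired analysis was possible because each group holds 1 library, all with the same number, and no test was run. Against the values in the report (557 peaks, 3.90% of untreated gene-end peaks, 148 protein-coding genes marked only without drug, 51.3% at a gene that keeps a daunorubicin peak, 54.7% at a 5′ end), 26 of 50 alternative values moved beyond 1.5 times or beyond the counting interval and 24 did not. The causes were not tested.

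With only scores at or above the untreated median (43) in both lists, which carries a score from 1 list to the other (the daunorubicin median was 41), the share was 4.41%, the genes 295, the keeping share 33.0% and the 5′ share 83.1%. With the same number of highest-scoring peaks in each list there were 1446 peaks, 10.1%, 508 genes, 36.4% and 65.6%. A reciprocal overlap of 50% gave 2433 peaks, 17.0%, 88.3% keeping and 76.4% at a 5′ end. Counting a daunorubicin peak within 1 kb as shared gave 2.66% and 34.8% keeping. A gene-end distance of 2.5 kb gave 989 peaks, 5.81% and 67.3% keeping. Requiring the peak to cover the end gave 116 peaks, 1.11%, 924 genes, 20.7% keeping and 68.1% at a 5′ end. Protein-coding genes only gave 302 peaks, 2.70% and 61.9% keeping. Removing input peaks or keeping chromosomes 1 to 22 and X moved none of the 5 values. Keeping the genes with scaffold coordinates, an alternative chosen after seeing the data, gave 561 peaks.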

Other observations

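Untreated-only gene-end peaks lay near the outermost annotated genes of a chromosome more often than other gene-end peaks. Within 2 Mb of the outermost annotated genes of a chromosome were 60 of the 557 (10.8%, 8.46 to 13.6), against 7.20% of shared gene-end peaks, 4.92% (3.93 to 6.14) of shared ones with a score of at most 31 and 4.54% of daunorubicin-only gene-end peaks. Within 5 Mb the shares were 18.9% (15.8 to 22.3), 13.6%, 9.36% and 10.0%. The untreated-only shares cover all scores, so the comparison with shared peaks of at most 31 is not at like score. The outermost annotated gene need not lie at the end of the chromosome. By chromosome, the share of untreated gene-end peaks that were untreated-only ran from 1.63% on chromosome 13 (4 of 245) to 6.83% on chromosome 22 (25 of 366, 4.67 to 9.89).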
